A study of Mus musculus with 6 samples.

Results

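The genes described here were 10 genes of the cytosolic heat shock protein system, read by symbol from the deposited count table of 55416 genes: the HSP70 genes Hspa1a, Hspa1b and Hspa8, the HSP110 gene Hsph1, the HSP90 gene Hsp90aa1, the cochaperone genes Dnajb1 and Bag3, and the small heat shock protein genes Hspb1, Hspb8 and Cryab. All 10 were found and all 10 passed the filter on low counts, which kept 15623 genes. RNA-seq had been run on tibialis anterior (TA) muscle of naturally aged mice, with 3 libraries from wild-type (WT) and 3 from SELENOW knockout (KO) animals. SELENOW is a small selenoprotein of skeletal muscle. Mice of both groups were 24 months of age with no treatment but aging, and both lines were kept on the C57BL/6N background. The KO line lacked an exon of Selenow, removed with CRISPR-Cas9 and a pair of sgRNAs. The study describes the replicates of this experiment as mice. Within a group, the libraries were told apart only by a replicate number. The p-values below test the difference between the groups against the spread between these libraries.

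Heat shock proteins keep other proteins folded. HSP70 proteins bind unfolded stretches of a client and release them in a cycle driven by ATP, J-domain proteins such as DNAJB1 deliver clients and start the cycle, and HSP110 and BAG proteins exchange the nucleotide that ends it. Small heat shock proteins hold unfolding clients without ATP and, in striated muscle, sit at the Z-disc, where HSPB8 and BAG3 route damaged filamin to autophagy. Many of these genes are induced by heat shock factor 1 (HSF1), which binds heat shock elements, arrays of inverted GAA blocks, in their promoters.

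Promoter sequences of the stress-inducible members are shown because several hold runs of letters like those of such elements. RefSeq windows on GRCm38.p6, from 250 bases before to 50 bases after each transcript start, were at hand for 7 of the 10 genes, not for Hspa8, Hsp90aa1 and Cryab. The windows were searched on both strands for GAANNTTC and TTCNNGAA, each of which is its own reverse complement, and for longer motifs in which either one was followed by NN and a further block, GAA after the former and TTC after the latter. The longer motifs are each other's reverse complement, and each contains both short ones. Either short motif was held by 6 of the 7 genes (Hspa1a, Hspa1b, Hsph1, Bag3, Hspb1 and Hspb8). Counted by window, 7 of the 9 windows of the 7 genes held one, against 15.1% of all 32851 windows. A long motif was held by 1 of the 7 genes, Hsph1, in 2 windows that overlap. That was 2 of the 9 windows, against 0.603% of all windows. Dnajb1 held none of these letters in its windows. A match is a description of the sequence and was not tested for binding. The upstream 250 bases of Hspa1a (chr17:34972157-34972406, minus strand) and of Hspb1 (chr5:135887669-135887918, plus strand) are printed 5′ to 3′ with the matches in capitals. The match of Hspa1a began 104 bases upstream of the start, and the matches of Hspb1 began 117 and 97 bases upstream.
Hspa1a: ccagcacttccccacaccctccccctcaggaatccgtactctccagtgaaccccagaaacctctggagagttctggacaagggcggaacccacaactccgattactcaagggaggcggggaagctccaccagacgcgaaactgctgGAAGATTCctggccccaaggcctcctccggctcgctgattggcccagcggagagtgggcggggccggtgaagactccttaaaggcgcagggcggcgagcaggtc
Hspb1: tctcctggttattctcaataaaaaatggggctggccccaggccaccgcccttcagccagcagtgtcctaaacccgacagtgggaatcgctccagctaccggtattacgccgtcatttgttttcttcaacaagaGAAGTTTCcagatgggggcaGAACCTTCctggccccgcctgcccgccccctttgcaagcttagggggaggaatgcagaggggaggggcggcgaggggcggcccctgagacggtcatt

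Hspa1b, the neighbour of Hspa1a on the same strand, had the same match at the same distance, and over the 300 bases of the windows the sequences of the pair differed at 4 positions. Its upstream 250 bases (chr17:34959239-34959488, minus strand) are printed for comparison, followed by 30 bases around the matches of Hsph1 (chr5:149636351-149636380 and chr5:149636282-149636311, minus strand, the second just after the start), 30 bases across the start of Hspb8 (chr5:116422844-116422873, minus strand) and the 19 bases that end the Bag3 window (chr7:128523614-128523632, plus strand). The capitals mark the motifs, and the second Hsph1 stretch holds the long one.
Hspa1b: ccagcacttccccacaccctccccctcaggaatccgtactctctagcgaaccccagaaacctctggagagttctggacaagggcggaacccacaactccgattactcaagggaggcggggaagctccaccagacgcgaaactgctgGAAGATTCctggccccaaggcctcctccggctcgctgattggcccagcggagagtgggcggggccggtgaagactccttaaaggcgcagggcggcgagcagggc
Hsph1: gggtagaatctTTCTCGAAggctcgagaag
Hsph1: aatgctgcagaTTCTGGAAAGTTCtcctca
Hspb8: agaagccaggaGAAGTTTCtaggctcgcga
Bag3: ggatgggaccaGAAGTTTC

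Library sizes ranged from 25351976 to 29111213 counts. Selenow stood at 268, 245 and 219 CPM (counts scaled to library size with TMM factors) in WT replicates 1, 2 and 3 and at 193, 212 and 210 in KO, and a count per gene does not resolve the deleted exon. Skeletal fiber markers were abundant in every library, with summed levels of 89974 to 118113 CPM in WT and 99560 to 116402 CPM in KO, while 4 of 6 epidermal markers were at 0 throughout.

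As compared with WT mice, none of the 10 genes passed the thresholds of the study (unadjusted p below 0.05 with a fold change above 1.5 or below 0.7) in KO mice by edgeR's quasi-likelihood test, while 5.31% of all tested genes did. At an unadjusted p below 0.05 alone the count was also 0 of 10, against 9.89% of tested genes. DESeq2 gave 2 of 10 at that p, Hspa1b and Bag3, against 8.26%, and 1 of 10 past both thresholds, Hspa1b, against 4.94%. No gene of the table had a Benjamini-Hochberg adjusted p below 0.05 in edgeR's test, and 45 genes (0.288%), none of them a member, did in DESeq2. The log2 fold change (KO minus WT) was below 0 for 7 of the 10 genes, against 50.6% of tested genes, and its median was -0.19 over the 10 genes and -0.0042 over all tested genes. The values per library showed single KO libraries standing apart. KO replicate 2 was the lowest of the 6 libraries for 9 of the 10 genes, against 19.7% of tested genes, and KO replicate 3 was the highest for 4 of the 10, against 12.9%.

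**Figure D1:**
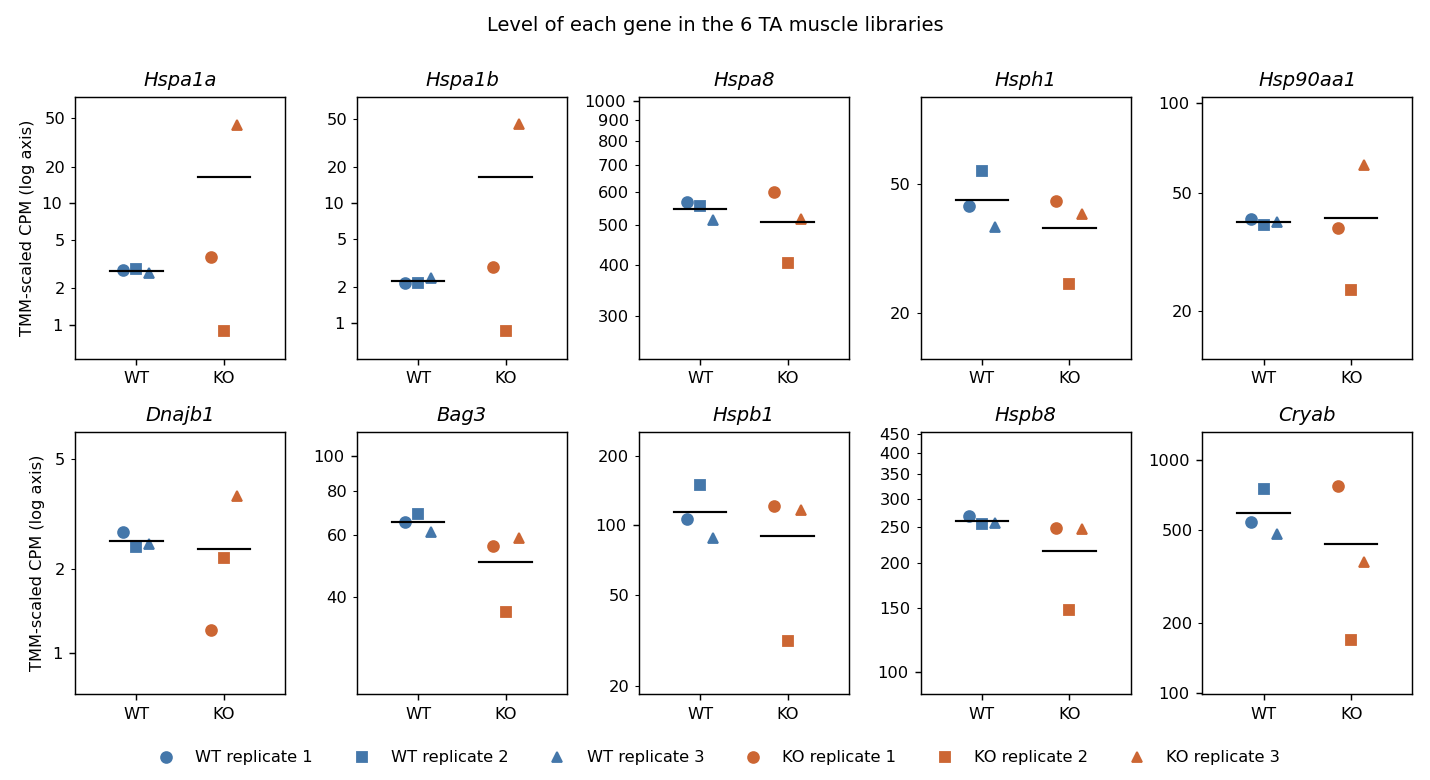
Level of each of the 10 genes in each library, in TMM-scaled CPM on a log axis whose range differs by panel. Points are libraries, marked by replicate, and horizontal bars are group means. KO replicate 2 is the lowest point in 9 panels, and KO replicate 3 stands at 44.4 CPM for Hspa1a and 45.3 CPM for Hspa1b.

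Hspa1a and Hspa1b encode the stress-inducible HSP70. Hspa1a (17:34969190-34972156 in GRCm38, GENCODE M21) had 70, 92 and 81 counts in the WT libraries and 90, 22 and 1186 in the KO libraries, or 2.84, 2.86 and 2.67 CPM against 3.63, 0.897 and 44.4 CPM. Hspa1b (17:34956436-34959238) had 53, 69 and 72 counts in WT and 72, 21 and 1210 in KO, or 2.15, 2.15 and 2.37 CPM against 2.90, 0.856 and 45.3 CPM. The WT libraries were nearly level for both genes, and the KO libraries lay on both sides of them, 1 far above, 1 above by less and 1 below. KO replicate 3 was 15.9-fold above the WT mean for Hspa1a and 20.4-fold above it for Hspa1b. KO replicate 2 was at 32.1% and 38.5% of the WT mean. The log2 fold change was 2.54 (SE 1.55, 95% CI -1.66 to 6.76) for Hspa1a, with an adjusted p of 0.666 by edgeR's quasi-likelihood test with Benjamini-Hochberg adjustment. For Hspa1b it was 2.86 (SE 1.65, 95% CI -1.58 to 7.35, edgeR adjusted p = 0.646), the highest log2 fold change of the 15623 tested genes. Both means rest on KO replicate 3, without which the log2 fold changes were -0.30 and -0.24. With robust estimation of the spread switched off, both genes passed the unadjusted thresholds, 2 of 10 against 5.84% of tested genes. Without KO replicate 2 their log2 fold changes were 3.10 and 3.42, and none of the 10 genes passed, against 5.64% of tested genes. Without KO replicate 3 none passed either, against 5.16%.

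The pair led the genes that stood highest in KO replicate 3. Among 12805 genes with a mean of at least 1 CPM, Hspa1b and Hspa1a ranked 1 and 2 for the log2 distance of KO replicate 3 above the highest of the other 5 libraries, at 3.95 and 3.60, and 4 genes exceeded a distance of 2. The genes ranked next were Gm20481, at 3.30, with 17, 27 and 35 counts in WT and 32, 9 and 348 in KO, and Gm8818, a processed pseudogene, at 3.17. Of the 150-base windows of Gm20481 transcripts, 65.5% also occurred in Hspa1a, which lies on the opposite strand, so its counts and those of Hspa1a may share reads. Hspa1a and Hspa1b shared windows with other transcripts at 46.0% and 40.5%, mostly with each other, and their split is uncertain. Summed over the pair, the counts were 123, 161 and 153 in WT and 162, 43 and 2396 in KO. Like each gene, the sum was lowest in KO replicate 2 and highest in KO replicate 3, with a log2 fold change of 2.70 (SE 1.6, edgeR adjusted p = 0.658).

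Hspa8 encodes the constitutive HSC70, which also serves chaperone-mediated and chaperone-assisted autophagy. It stood at 569, 555 and 513 CPM in WT and at 602, 403 and 518 CPM in KO. The groups overlapped, with KO replicate 1 above all WT libraries and KO replicate 2 at 73.9% of the WT mean. The log2 fold change was -0.10 (SE 0.17, 95% CI -0.47 to 0.27, edgeR adjusted p = 0.872). Of its 150-base windows, 23.0% were shared with other transcripts, pseudogenes among them, so its level is uncertain to that extent.

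Hsph1 encodes HSP110, a nucleotide exchange factor of HSP70. Its level was 42.6, 54.6 and 36.9 CPM in WT and 44.4, 24.5 and 40.3 CPM in KO. The groups overlapped apart from KO replicate 2, which was at 54.9% of the WT mean, and the log2 fold change was -0.30 (SE 0.23, 95% CI -0.81 to 0.22, edgeR adjusted p = 0.704). Without KO replicate 2 it was -0.08. Hsp90aa1 encodes the inducible HSP90 alpha, which matures kinases and steroid receptors. It stood at 40.9, 38.9 and 40.0 CPM in WT and at 38.2, 23.6 and 62.0 CPM in KO. The WT mean was 39.9 ± 0.991 CPM (SD, n = 3), KO replicate 3 was 1.55-fold above that mean, and KO replicate 2 was at 59.0% of it. The mean in KO was 41.3 ± 19.4 CPM (SD, n = 3), and the log2 fold change was 0.05 (SE 0.32, 95% CI -0.73 to 0.83, edgeR adjusted p = 0.971). Of its 150-base windows, 28.5% were shared with other transcripts, mainly Gm12346, a processed pseudogene with 109, 151 and 111 counts in WT and 95, 73 and 166 in KO, so reads may be split between them. Like the HSP70 pair, Hsp90aa1 was highest in KO replicate 3 and lowest in KO replicate 2, and its log2 fold change without KO replicate 3 was -0.37.

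Dnajb1 encodes the main inducible J-domain cochaperone of HSP70. It had 67, 77 and 75 counts in WT and 30, 54 and 98 in KO, or 2.72, 2.40 and 2.47 CPM against 1.21, 2.20 and 3.67 CPM. It was the single member whose lowest library was KO replicate 1, and KO replicate 3 was its highest. The log2 fold change was -0.09 (SE 0.34, 95% CI -0.83 to 0.65, edgeR adjusted p = 0.950), and without KO replicate 1 it was 0.22. Bag3 encodes the cochaperone that links HSP70 to small heat shock proteins and selective autophagy. Its level was 65.3, 68.8 and 61.0 CPM in WT and 55.9, 36.3 and 59.0 CPM in KO. Every KO library lay below every WT library, with KO replicate 2 at 55.8% of the WT mean and the other two just under the lowest WT library. The group means were 65.0 ± 3.91 CPM in WT and 50.4 ± 12.3 CPM in KO (SD, n = 3 each), and the log2 fold change was -0.37 (SE 0.17, 95% CI -0.75 to 0.011, edgeR adjusted p = 0.520).

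Bag3 and Hspb8 were the members whose groups did not overlap, 2 of 10 against 15.4% of tested genes. For each, the exact two-sided permutation test gave p = 0.1, the smallest that 3 against 3 libraries allow. Both differences rest in size on KO replicate 2, without which the log2 fold change of Bag3 was -0.18 and that of Hspb8 -0.07. With 1 KO library left out, 3 of 10 members did not overlap without KO replicate 1 (29.6% of tested genes), 4 without KO replicate 2 (21.8%) and 4 without KO replicate 3 (25.9%).

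Hspb1 encodes HSP27 (HSP25 in the mouse), which binds actin and desmin filaments. It stood at 106, 149 and 87.6 CPM in WT and at 121, 31.5 and 116 CPM in KO. KO replicates 1 and 3 were inside the WT range, and KO replicate 2 was at 27.6% of the WT mean, 3.62-fold below it. The log2 fold change was -0.35 (SE 0.57, 95% CI -1.82 to 1.12, edgeR adjusted p = 0.876). Of the 150-base windows of Hspb1, 39.1% were found in other transcripts. All of these occurred in Hsp25-ps1, and Gm9817 held 27.3% of the Hspb1 windows. Hsp25-ps1 had 282, 530 and 285 counts in WT and 315, 95 and 376 in KO. The order of libraries was thus similar in the gene and this processed pseudogene, between which reads may be split.

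Hspb8 encodes the small heat shock protein that pairs with BAG3. Its level was 269, 255 and 258 CPM in WT and 248, 148 and 248 CPM in KO. Every KO library lay below every WT library, KO replicates 1 and 3 by a little and KO replicate 2 at 57.0% of the WT mean. The means were 260 ± 7.11 CPM in WT and 215 ± 57.5 CPM in KO (SD, n = 3 each), with a log2 fold change of -0.28 (SE 0.19, 95% CI -0.69 to 0.14, edgeR adjusted p = 0.665). Cryab encodes alpha B-crystallin, which protects desmin and titin and is abundant in oxidative fibers. It stood at 542, 755 and 481 CPM in WT and at 775, 169 and 364 CPM in KO. Its KO libraries ran from above all WT libraries in replicate 1 to 28.5% of the WT mean in replicate 2. The log2 fold change was -0.44 (SE 0.59, 95% CI -1.96 to 1.07, edgeR adjusted p = 0.842). Without KO replicate 1 it was -1.15, past the unadjusted thresholds (edgeR adjusted p = 0.366). Cryab was then 1 of 10 genes past them, against 6.62% of tested genes, while 0.0995% of tested genes and no member had an adjusted p below 0.05 in edgeR's test. Without KO replicate 2 the log2 fold change of Cryab was -0.06.

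**Figure D2:**
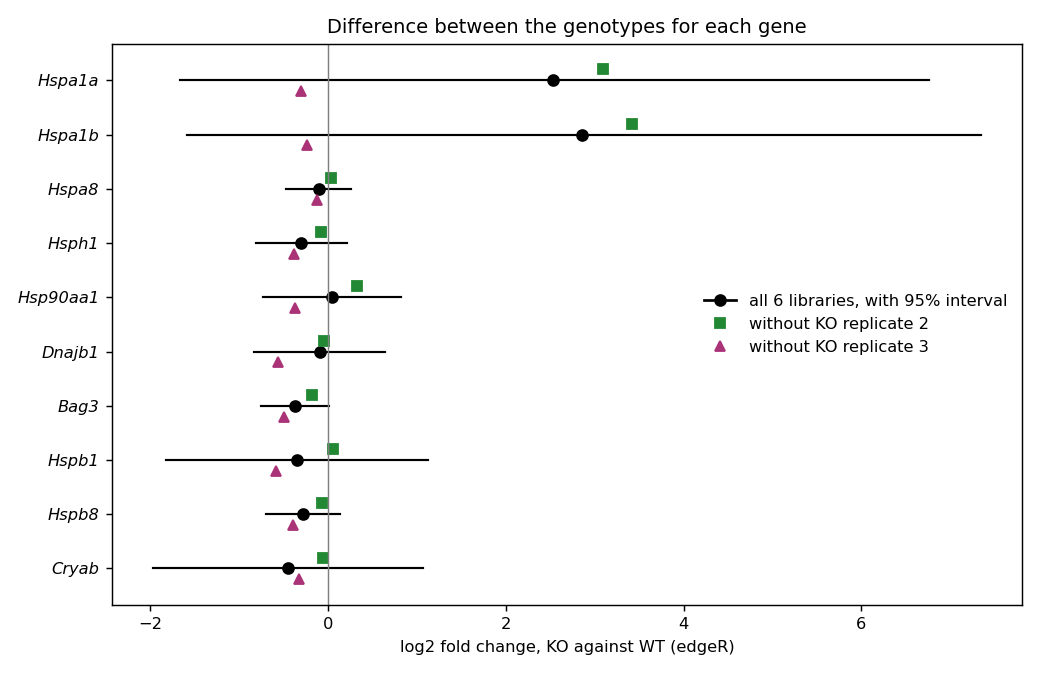
Log2 fold change (KO minus WT) of each gene from edgeR's quasi-likelihood fit, with 95% confidence intervals (circles and lines), and without KO replicate 2 (squares) or KO replicate 3 (triangles). Every interval includes 0, and those of Hspa1a and Hspa1b are the widest.

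Per counted length, in RPKM (CPM divided by the counted exon length), the order of levels in WT muscle was Cryab at 401 ± 97.0, Hspb8 at 134 ± 3.65, Hspa8 at 127 ± 6.68, Hspb1 at 111 ± 30.5, Bag3 at 25.4 ± 1.53, Hsp90aa1 at 10.2 ± 0.252, Hsph1 at 6.15 ± 1.25, Hspa1a at 0.940 ± 0.0360, Hspa1b at 0.793 ± 0.0458 and Dnajb1 at 0.789 ± 0.0524 (SD, n = 3). The chaperones of the Z-disc and the constitutive HSP70 thus stood far above the inducible HSP70s. The ranges of the WT libraries overlapped for the neighbours Hspb8 and Hspa8, Hspa8 and Hspb1, and Hspa1b and Dnajb1. In KO muscle Cryab was again highest, at 295 ± 209 RPKM, and Dnajb1 lowest, at 0.736 RPKM, while Hspa1a and Hspa1b stood at 5.49 ± 8.21 and 5.83 ± 8.94 RPKM. Only the neighbours Hspb1 and Bag3, and Hsph1 and Dnajb1, had ranges that did not overlap in KO.

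The spread of the 10 genes differed between the groups in 1 direction. The SD of log2 CPM over the 3 libraries was larger in KO than in WT for 10 of 10 genes, against 45.8% of tested genes. Its median over the 10 genes was 0.0839 in WT and 0.742 in KO, while over all tested genes it was 0.225 and 0.207. In WT, 7 of the 10 genes had an SD below that median of all tested genes, and Hsph1, Hspb1 and Cryab had a larger one (0.286, 0.387 and 0.336). In KO, 10 of 10 had an SD above it. The SD was 0.0551 in WT and 2.83 in KO for Hspa1a, 0.0358 and 0.697 for Hsp90aa1, and 0.0391 and 0.427 for Hspb8. The 10 values come from the same 3 KO libraries and are not independent. KO replicate 2 was the lowest of the 6 libraries for 9 of the 10 genes, and KO replicate 3 the highest for 4. The difference in spread was not tested.

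**Figure D3:**
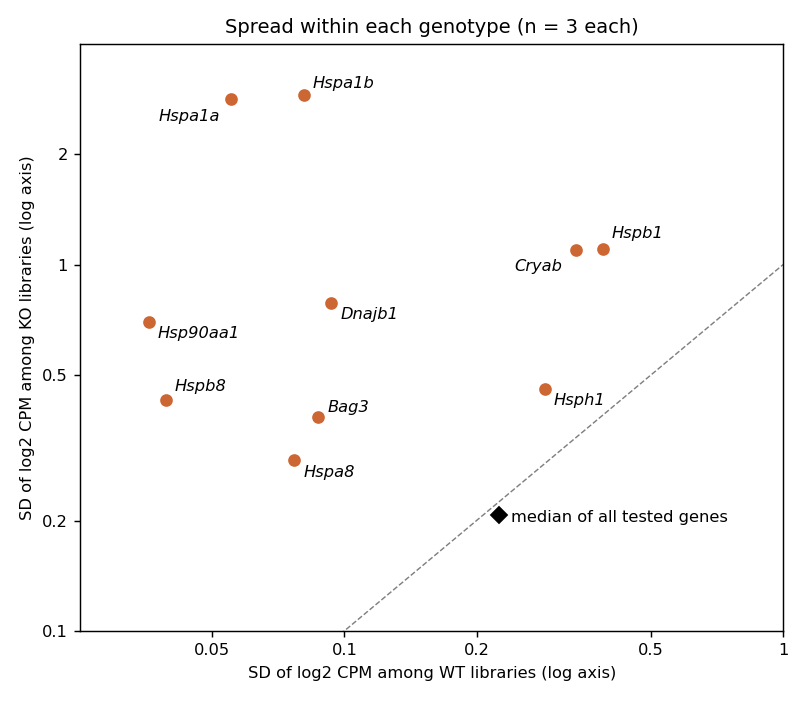
SD of log2 CPM over the 3 WT libraries (x axis, log scale) and over the 3 KO libraries (y axis, log scale) for each of the 10 genes, with the medians over all tested genes. All 10 genes lie above the line of equal spread, and KO replicate 2 was the lowest library for 9 of them.

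The median of log2 CPM minus the WT mean over the 10 genes was 0.017, 0.031 and -0.07 in the WT libraries and 0.06, -0.84 and -0.0058 in the KO libraries, while over all tested genes it lay within -0.00058 to 0.010 in every library. KO replicate 2 was thus the library that stood apart across the members, and KO replicate 3 stood apart for 4 of them. Among 12805 genes ranked by the log2 distance of KO replicate 2 below the lowest of the other libraries, Hspa1a ranked 6, Hspb1 8, Hspa1b 12, Cryab 23, Hspb8 74, Hsp90aa1 94, Bag3 125, Hsph1 139 and Hspa8 453. Other genes at the top of that ranking, named after their values were seen, were Csrp3, a Z-disc protein, with 1533, 3870 and 1489 counts in WT and 1748, 80 and 340 in KO, and Tnfrsf12a, the TWEAK receptor, with 685, 603 and 660 in WT and 431, 94 and 379 in KO. Low values in this library therefore reached beyond the chaperones. In whole muscle, fewer cells of a type and less RNA per cell cannot be told apart.

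The cell type markers of KO replicate 2 were compared with the other libraries. Summed skeletal fiber markers were 116402 CPM in it, inside the WT range. Slow fiber markers summed to 109, 69.7 and 150 CPM in WT and to 84.3, 64.7 and 60.0 CPM in KO. Fibroblast markers summed to 152, 80.8 and 284 CPM in WT and to 152, 70.5 and 116 CPM in KO. Of these markers, 6 of 8 were lowest in KO replicate 2, against 19.7% of all tested genes. Leukocyte markers were 12.3 CPM in KO replicate 2 and 13.6 to 28.2 CPM in WT. Smooth muscle markers summed to 153 to 199 CPM in WT and to 244, 291 and 222 CPM in KO. Most of that sum was Rgs5, at 150, 122 and 125 CPM in WT and 191, 236 and 179 CPM in KO. Of the 6 markers, 4, 3 and 3 exceeded every WT library in KO replicates 1, 2 and 3, and Acta2 did so in no KO library. Endothelial markers summed to 115 CPM in KO replicate 2 and to 64.6 to 107 CPM in WT, and 3 of 8 of them exceeded every WT library. Adipocyte markers lay between 0.898 and 2.58 CPM and Schwann cell markers between 6.63 and 15.6 CPM. The share of counts on mitochondrially encoded genes was 38.2% in KO replicate 2, 29.1% to 37.3% in WT and 35.4% to 40.3% in KO. The part of these markers and shares in the results was not tested.

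The other genes of the system were read from 12 lists holding 132 genes, 125 of them tested. None passed the thresholds higher in KO, where 2.19% of tested genes did, and 8 passed them lower, where 3.12% did. These were the endoplasmic reticulum (ER) chaperone and folding genes Hspa5, Pdia6, Dnajb9, Sdf2l1, Manf and Hyou1, with Hmox1, the heme oxygenase, and Fos, an immediate early transcription factor. Hspa5, the ER HSP70 BiP, stood at 259, 206 and 210 CPM in WT and at 155, 92.8 and 106 CPM in KO (log2 fold change -0.93, SE 0.20, edgeR adjusted p = 0.274). All 3 KO libraries of Hspa5 lay below every WT library. The ER list had a median log2 fold change of -0.50 with 15 of 15 genes below 0, against 50.6% of all tested genes. Its medians against the WT mean were -0.17, -0.73 and -0.59 in KO replicates 1, 2 and 3. For the 10 cytosolic genes the same medians were 0.06, -0.84 and -0.0058, with KO replicate 2 low in both sets.

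The 8 genes past the thresholds came from the ER list, the stress ubiquitin list (Hmox1) and the immediate early list (Fos), and no gene of the other 9 lists passed. The HSF genes had a median log2 fold change of -0.05 over 5 tested genes, and Hsf1 itself was 12.9, 13.4 and 10.3 CPM in WT and 12.1, 12.2 and 12.3 CPM in KO. HSP90 beta and the HSP90 cochaperones had a median of -0.06 over 18 genes. Hsp90ab1, the constitutive HSP90 beta, stood at 488, 685 and 529 CPM in WT and at 617, 479 and 640 CPM in KO. The HSP70 cochaperones had a median of -0.04 over 17, and Dnaja1, a J-domain protein, was 28.6, 24.4 and 25.4 CPM in WT and 22.4, 21.3 and 30.3 CPM in KO. The groups overlapped for all 3 of these named genes. Other HSP70 and HSP110 genes had a median of -0.12 over 8, and the mitochondrial chaperones -0.06 over 9. The TRiC and prefoldin genes had a median of -0.18 over 14, with 14 of 14 below 0, against 50.6% of all tested genes. Genes of a list come from the same libraries and are not independent. The BAG3 partners had a median of -0.05 over 8, the stress ubiquitin genes 0.03 over 8, the immediate early genes -0.12 over 16 and the cold-inducible genes 0.27 over 2.

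The other small heat shock proteins also had KO replicate 2 lowest. Their medians against the WT mean were 0.32, -0.64 and -0.18 in KO replicates 1, 2 and 3. Of them, 5 of 5 tested genes were lowest in KO replicate 2, against 19.7% of all tested genes. Hspb7, a cardiac and skeletal muscle small heat shock protein, stood at 488, 617 and 658 CPM in WT and at 773, 163 and 305 CPM in KO. Its log2 fold change was -0.51 (SE 0.60, edgeR adjusted p = 0.821), and its libraries ran in KO as those of Cryab did, with replicate 1 highest and replicate 2 lowest. Hspb6, HSP20, was 718, 574 and 533 CPM in WT and 835, 516 and 532 CPM in KO, with overlapping groups. Flnc, the filamin C gene of the BAG3 partners, chosen after its values were seen, was at 490, 639 and 521 CPM in WT and 579, 190 and 396 CPM in KO. The other BAG3 partners did not share 1 pattern. Of the 8, 3 were lowest in KO replicate 2, against 19.7% of all tested genes, and the list median against the WT mean was -0.06 there. Synpo2 and Filip1 were highest in KO replicate 2, at 362 and 41.5 CPM.

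**Figure D4:**
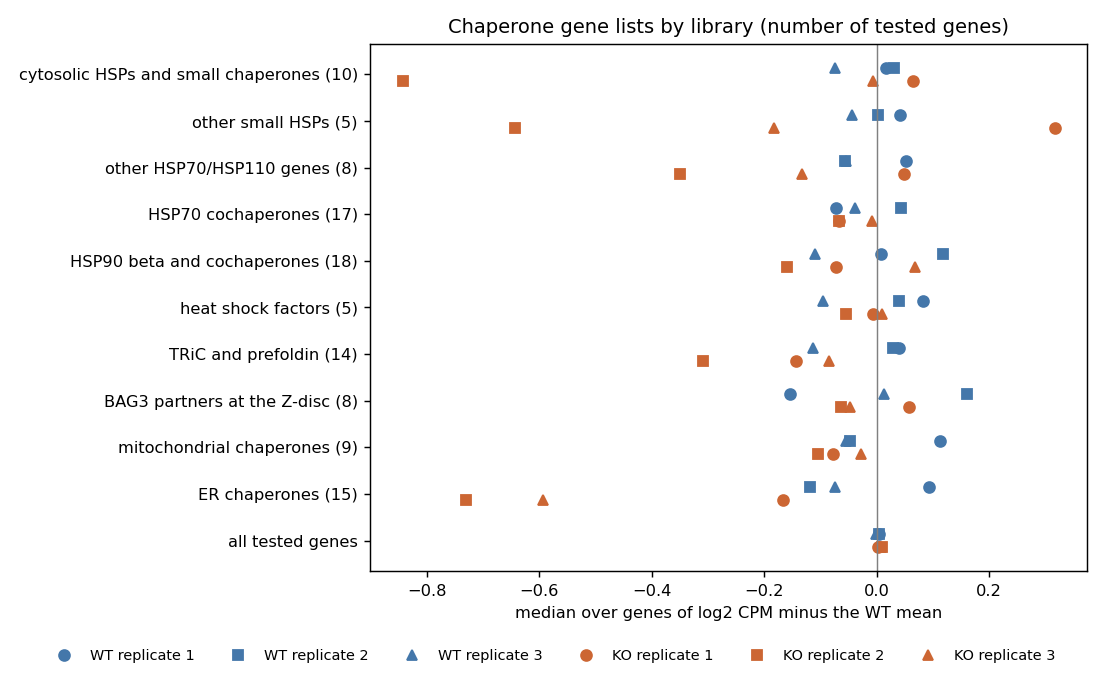
Median over each gene list of log2 CPM minus the WT mean, in each library. KO replicate 2 is lowest for the 10 genes at -0.84. In it the ER chaperones stand at -0.73, the other small heat shock proteins at -0.64, and TRiC and prefoldin at -0.31.

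The genes whose pattern was most like that of the 10 were found by Pearson's r over the 6 libraries between a gene's log2 CPM and the mean scaled log2 CPM of the 10 genes, and 0.946% of 12795 genes had an r above 0.9. Each r was computed again without KO replicate 2. The highest values were those of Ebag9, at 0.997 and 0.967 without it, 2210016F16Rik, at 0.989 and 0.895, and Trex1, a DNA exonuclease, at 0.989 and 0.885. Gm3531, Gm20075, Kti12, Dupd1, Gm16156, Gm12178 and Gm42742 followed, with r from 0.974 to 0.988, and from 0.707 to 0.896 without it. The value of r does not depend on the size of a difference. Ebag9 stood at 10.6, 10.6 and 10.3 CPM in WT and at 10.3, 9.05 and 10.9 CPM in KO. Dupd1, a muscle phosphatase gene, stood at 24.2, 28.1 and 23.9 CPM in WT and at 24.9, 11.2 and 27.3 CPM in KO. These values describe 6 libraries and were not tested.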

How the data were processed

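RNA-seq of TA muscle from 3 WT and 3 KO mice was analysed from the raw counts per gene that the authors deposited (6 columns, 55416 genes, whole numbers, no normalization). The submitters' processing notes name HISAT2 and GRCm39, whereas the methods of the study name GRCm38 with featureCounts. Handling of strand and of reads matching several genes was not given in the sources used here. Positions printed here come from GENCODE M21 and RefSeq on GRCm38, not from the table, of whose genes 1388 of 52135 had the same start and end there. A WT column without a number was taken as WT replicate 1 because the other WT columns carried 2 and 3. No column was left unmapped.

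Counts were scaled with TMM factors after filterByExpr, which kept 15623 genes, and KO was compared with WT by edgeR 4.0.16's quasi-likelihood test with robust estimation (R 4.3.3, limma 3.58.1) and Benjamini-Hochberg adjustment over all tested genes. Calls used p under 0.05 with a fold change above 1.5 or below 0.7. DESeq2 1.42.0, other filters and scaling, a replicate block and leaving out each library were alternatives. Log2 CPM used a prior count of 1. The code was tested on simulated data. Single genes were also compared by the exact two-sided permutation test.

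The 10 genes and the 12 lists were chosen with earlier results of these data known. Named were the 10 genes, list genes past the thresholds, Hsf1, Hspa5, Hsp90ab1, Dnaja1, Hspb6 and Hspb7, the 10 genes most like the members by r, the genes that exceed all other libraries by most in each library, and Selenow. Of the genes that exceed other libraries, only those of KO replicate 3 and the leading 3 of KO replicate 2 are described. Other cell types were checked with 9 marker lists. Windows of 150 bases were matched between transcripts to find shared sequence.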

Additional observations from a re-analysis of the deposited data

How the results depend on the processing

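The count of members past the thresholds was 0, and it was 1 with DESeq2 (Hspa1b), 2 with robust estimation off (Hspa1a and Hspa1b) and 0 to 1 when 1 library was left out, the 1 being Cryab without KO replicate 1. Genes past the thresholds numbered 829, against 1766 with no filter, 280 with an absolute log2 fold change above 1 and 0 at an adjusted p. Leaving out 1 library gave 6 to 17 list genes past the thresholds. The main fit gave 8 of 125, with 5.31% of all tested genes past them. The 17 came without KO replicate 1, where 6.62% of all tested genes passed. Leaving out 1 library also gave 2 to 4 members without overlap between groups. These were 4 (21.8% of tested genes) without KO replicate 2 (Hspa1a, Hspa1b, Bag3 and Hspb8) and 4 (25.9%) without KO replicate 3 (Bag3, Hspb8, Hsp90aa1 and Dnajb1).

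Leave-one-out log2 fold changes ran from -0.37 to 0.33 for Hsp90aa1, from -0.56 to 0.22 for Dnajb1 and from -0.62 to 0.057 for Hspb1. Direction changed without KO replicate 1 for Dnajb1 (log2 fold change 0.22), without KO replicate 2 for Hspa8 (0.040) and Hspb1 (0.057), and without KO replicate 3 for Hspa1a (-0.30), Hspa1b (-0.24) and Hsp90aa1 (-0.37). The median over the 10 genes was -0.19, -0.00031 without KO replicate 2 and -0.37 without KO replicate 3. Without KO replicate 2, the log2 fold changes of Hspa1a and Hspa1b were 3.10 and 3.42, and those of Hsph1, Bag3, Hspb8 and Cryab were -0.08, -0.18, -0.07 and -0.06 against -0.30, -0.37, -0.28 and -0.44. The cause was not tested.

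No source said whether the replicate numbers shared between groups pair the libraries. The deviations of same-numbered libraries correlated at 0.06, 0.044 and -0.07, and those of unlike-numbered libraries at -0.14 to 0.093. Such values cannot settle whether the libraries were paired. With the replicate number as a block, 885 genes and 0 members passed, the median over the 10 genes was -0.25, Hspa1a and Hspa1b stood at 1.18 and 1.44 against 2.54 and 2.86, and Hsp90aa1 turned to -0.059. Depth limits the values of Hspa1a, Hspa1b and Dnajb1, which had 21 to 92 counts in the libraries other than KO replicate 3, and 3 libraries a group limit every test.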

Other observations

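In KO replicate 3, the genes that ranked 5 to 10 for the log2 distance above the highest other library were AI662270 (1.53), Gm11427 (1.44), Zfp407 (1.12), Srebf1 (1.10), Cdh4 (1.10) and Abca1 (1.05), so a gap separated them from the 4 leading genes. Srebf1, the lipid synthesis regulator SREBP1, had 122, 235 and 264 counts in WT and 104, 204 and 499 in KO. Abca1, a cholesterol exporter, had 90, 154 and 221 counts in WT and 85, 197 and 446 in KO. Hsp90aa1 ranked 25 and Dnajb1 66 in that order. Gm8818, the processed pseudogene that ranked 4, had 11, 16 and 22 counts in WT and 20, 3 and 201 in KO, the same high and low libraries as Hspa1a, and shared none of its 150-base windows and 22.9% of its 50-base windows with other transcripts. In KO replicate 2, the genes that ranked 1 to 3 for the same distance were Gm10800 (3.09), Gm10722 (2.74) and Gm10718 (2.63). Gm10800 had 61, 79 and 399 counts in WT and 199, 2759 and 24 in KO. Distances above 2 were also seen for 2 genes in KO replicate 1 and 1 gene in WT replicate 3.

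A pair of further genes was chosen after their values were seen. Atf3, a stress-induced transcription factor, had 140, 329 and 160 counts in WT and 231, 57 and 470 in KO. It was lowest in KO replicate 2 and highest in KO replicate 3, as were Hspa1a, Hspa1b and Hsp90aa1. Lmcd1, a muscle LIM-domain protein, had 3158, 3677 and 3390 counts in WT and 4070, 1024 and 2721 in KO. It was highest in KO replicate 1 and lowest in KO replicate 2, as were Cryab and Hspb7.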
